A study of Arabidopsis thaliana with 2 samples.

Results

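The genes described here are 5 genes of the protein folding machinery of the endoplasmic reticulum (ER): the transcription factor BZIP60 and the chaperones BIP3, ERDJ3B, CRT2 and PDIL1-2. They were chosen by name, as 1 probe set each out of 22810 on the array, because they belong to the unfolded protein response, and the choice was made with earlier results of these arrays known, so the direction of none of the 5 is independent evidence. BZIP60, ERDJ3B and CRT2 are named by the probe annotation, where CRT2 appears under its synonym CRT1b. BIP3 and PDIL1-2 are named through the gene codes of a supplementary table of the study. It lists genes picked for changing between csb3 and wild type in the study's own array data, so these names are not independent of the change. How the triplicate samples named in the methods relate to the arrays used here is not given.

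The arrays compared 5-week-old whole plants of the csb3 mutant with those of wild-type Col-0, the ecotype in which csb3 was made, and both were kept at 23 °C with 10 h of light and 14 h of dark, with no treatment given in the labels. csb3 is a single mutant line with enhanced disease resistance and a mutation in HDS, an enzyme of isoprenoid synthesis in the chloroplast, for which no probe set is named here, so the labels could not be checked against that gene. The line was found in a screen for constitutive activity of a tomato subtilase promoter joined to the GUS reporter. Whether the Col-0 plants on the array carried that reporter is not given in the sources used here. The design text mentions the collection of 5 plants, and whether the RNA on an array came from 1 plant or from a pool is not given in the sources used here. Each genotype had 1 Affymetrix ATH1 array, so the differences below could not be checked against replicates or given a p-value.

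Secreted and membrane proteins fold in the ER, and a load of unfolded protein there starts the unfolded protein response. In Arabidopsis the membrane kinase and ribonuclease IRE1 splices the BZIP60 transcript, and the spliced form encodes a factor that enters the nucleus and switches on chaperone genes. BZIP28 and BZIP17 form a second branch, in which membrane-bound factors are released by proteases in the Golgi. BiP proteins are HSP70 chaperones of the ER lumen, J-domain proteins such as ERDJ3B deliver clients to them, calreticulins hold glycoproteins until they are folded, and protein disulfide isomerases form and rearrange disulfide bonds. Plants that secrete large amounts of defense proteins are known to raise parts of this machinery.

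Signals are MAS5 signals on a linear scale, 1 per probe set and array. A signal under 50 was raised to 50 and each csb3 signal was then divided by its Col-0 signal. A fold with 1 raised signal is a lower bound and is written as at least, and a gene was called up or down at 2-fold. Different probe sets of the same gene, in 45 genes, gave an SD of 0.65 for a single log2 ratio. It measures spread between probe sets within this pair of arrays and not the spread between plants. What part of it is technical was not tested. A total of 12540 probe sets reached 50 in both genotypes, and their log2 ratios had a median of 0.08 and an SD of 0.67. The SD within genes was thus only slightly smaller than that over all these probe sets, so multiples of it are a rough guide.

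All 5 genes had a higher signal in the csb3 plants than in the Col-0 plants, and 4 of the 5 were up at 2-fold. The exception was CRT2. Over all 22810 probe sets, 4.56% were up and 2.74% were down at 2-fold in csb3, and among those that reached 50 in both genotypes 6.44% were up and 4.39% down. At 4-fold, 2 of the 5 genes (BIP3 and PDIL1-2, those named through the supplementary table) and 0.886% of all probe sets were up. Of the 3 genes that the annotation names, 2 were up at 2-fold, against 3.58% of all probe sets named by it, of which 2.65% were down. The median log2 ratio of the 5 genes was 1.81. In RNA from whole plants, a larger share of cells that express a gene and more of its RNA per cell cannot be told apart.

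**Figure D1:**
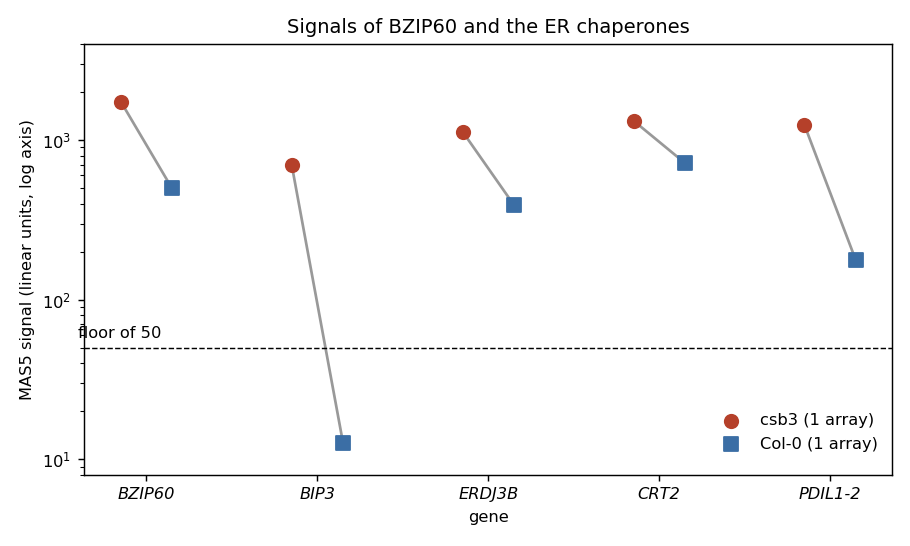
MAS5 signal (vertical log axis) of each gene on the csb3 array (red circle, left) and the Col-0 array (blue square, right), with 1 array per genotype and a dashed line at the floor of 50. The csb3 signal is the higher one for all 5 genes, and BIP3 in Col-0, at 12.7, is the single point below the floor.

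BZIP60, the transcription factor of the IRE1 branch, had a signal of 1741 in csb3 and 497.5 in Col-0. The fold was 3.50, a log2 ratio of 1.81, which is 2.79 times the SD of a single ratio. A ratio as high or higher was found for 270 of the 22810 probe sets. These signals do not tell the spliced from the unspliced transcript of BZIP60, so the activity of the factor was not measured.

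BIP3, the BiP gene that is known to be nearly silent in unstressed plants and strongly induced by ER stress, had a signal of 697.9 in csb3 and 12.7 in Col-0. The Col-0 signal lay below the floor, so BIP3 was at least 13.96-fold higher in csb3, and 10 probe sets of 22810, BIP3 included, had a floored log2 ratio of 3.80 or more. Of the 5 genes, BIP3 was the one that was dim on an array. The size of its ratio depended on the floor, with a log2 ratio of 5.12 for a floor of 20 and 2.80 for a floor of 100. BIP1 and BIP2, the BiP genes active in unstressed plants, have no probe set that names either alone in the sources used here, and how far BIP3 probes read them was not tested.

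PDIL1-2, a protein disulfide isomerase of the ER, had a signal of 1244 in csb3 and 177.4 in Col-0. It was 7.01-fold higher in csb3 (log2 ratio 2.81, or 4.33 times the SD of a single ratio), a value reached or exceeded by 57 probe sets. Among the 4 genes with 50 or more on both arrays it had the highest ratio.

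ERDJ3B, a J-domain partner of BiP that is known to be needed for the folding of the immune receptor EFR, had a signal of 1128 in csb3 and 392.3 in Col-0. The fold was 2.88, with a log2 ratio of 1.52, and 414 probe sets had a ratio as high or higher. The ratio was 2.35 times the SD of a single ratio.

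CRT2, a calcium-binding lectin chaperone, had a signal of 1322 in csb3 and 719.1 in Col-0. The ratio of 1.84-fold did not reach 2-fold. Its log2 ratio of 0.88 was 1.35 times the SD of a single ratio, and 1351 probe sets had the same or a higher value. CRT2 was thus higher in csb3 by an amount close to that spread.

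In order of their log2 ratios the genes were BIP3 (at least 3.80), PDIL1-2 (2.81), BZIP60 (1.81), ERDJ3B (1.52) and CRT2 (0.88). The difference of 2 such ratios has an SD of 0.92 on the same estimate. PDIL1-2 exceeded CRT2 by 1.93. The gaps from BZIP60 to ERDJ3B and from ERDJ3B to CRT2 were smaller than that SD. The arrays thus do not resolve the order within either pair. From BZIP60 to CRT2 the gap was about as large as that SD, so the order of these genes is not clearly resolved. The gap from PDIL1-2 to BZIP60 was only slightly larger than that SD, so their order is not clearly resolved either. The place of BIP3 depends on the floor, since with a floor of 100 BIP3 and PDIL1-2 came to about the same ratio (2.80 and 2.81).

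**Figure D2:**
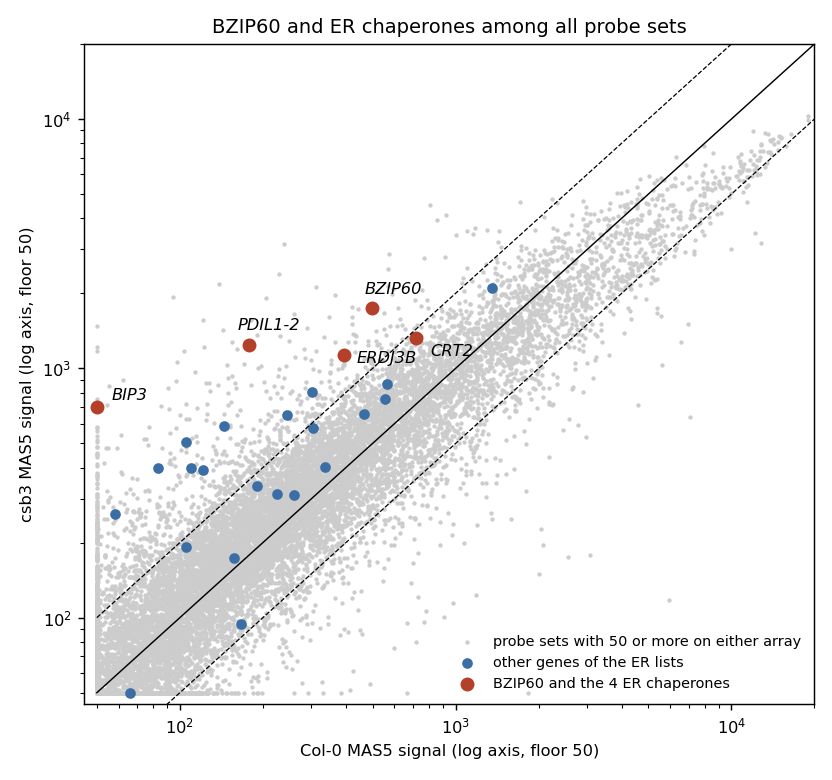
MAS5 signal in csb3 (vertical log axis) against Col-0 (horizontal log axis) for probe sets with 50 or more on at least 1 array, with signals below 50 drawn at 50. The solid line marks equal signals and the dashed lines 2-fold; 4 of the 5 red points lie above the upper dashed line, CRT2 lies just under it, and 8 of the 21 blue points of the other ER genes lie above it.

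Other genes of the ER folding machinery were taken from lists made by role, with 72 genes in all, the 5 genes above included. A probe set that names 1 gene was found for 26 of the 72, of which 22 are named by the annotation. Leaving out the 5 genes, 21 were measured, and 8 of them were up, 13 were neither and none was down at 2-fold. With names from the annotation alone the count was 6 of 19, against 3.58% of all probe sets with such names, or 5.57% of those that also reached 50 in both genotypes. Of the 21, 19 had a higher signal in csb3, as did 55.7% of all probe sets that reached 50 in both genotypes. Their median log2 ratio was 0.82. The 21 include 2 genes named through the table of changed genes. Among the 19 named by the annotation, 17 had a higher signal in csb3 and the median log2 ratio was 0.64. The lists were made with earlier results of these arrays known and cover 36.1% of their genes, so the counts describe the genes measured and not the lists as a whole.

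**Figure D3:**
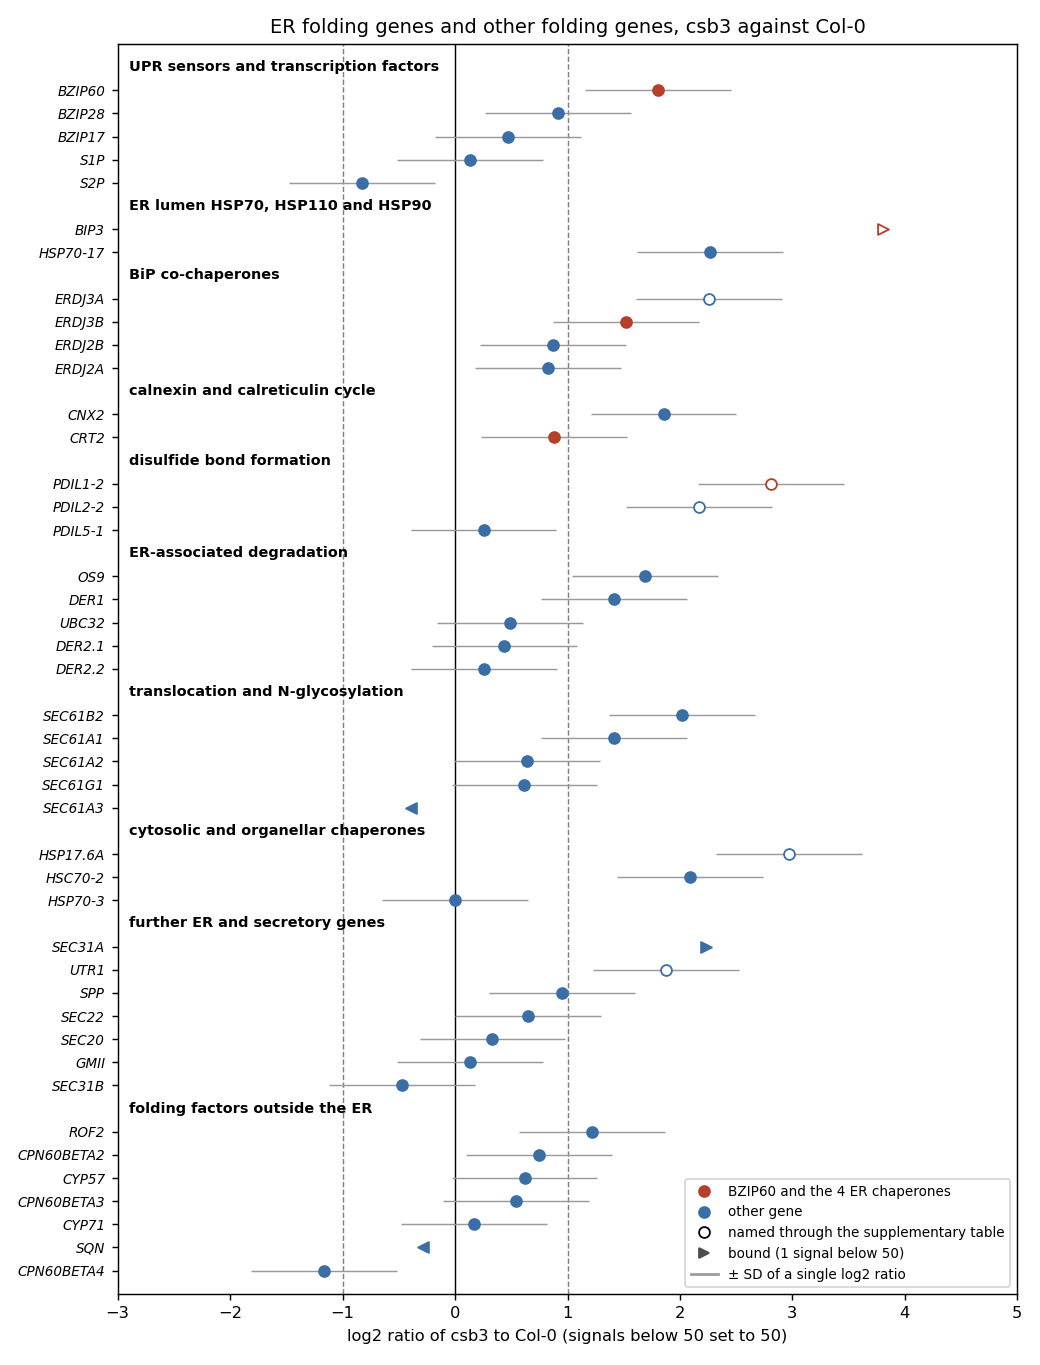
Log2 ratio of csb3 to Col-0 (horizontal axis) for each gene of the folding and secretion lists with a named probe set and 50 or more on at least 1 array, grouped by role and without the organ markers and reference genes, with red for BZIP60 and the 4 ER chaperones, blue for other genes, open symbols for genes named through the supplementary table and triangles for bounds. Bars show 0.65 on either side, the SD of a single ratio, and dashed lines mark 2-fold; BIP3, drawn at its bound of 3.80, lies farthest to the right of the genes shown and CPN60BETA4 of the chloroplast farthest to the left at -1.17.

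Among the regulators, BZIP60 was the 1 gene of 5 measured that was up, and it is among the genes chosen for this report. The annotation names all 5, and of all probe sets named by it 3.58% were up. The other 4 regulators were neither up nor down at 2-fold. BZIP28, the membrane-bound factor of the second branch, had a signal of 574.8 in csb3 and 304.9 in Col-0, a log2 ratio of 0.91. BZIP17 had 312.9 in csb3 and 225.6 in Col-0 (0.47), and the protease S1P had 172.8 in csb3 and 157.5 in Col-0 (0.13). The protease S2P was the gene with the lowest ratio here, at 94.3 in csb3 and 167.0 in Col-0 (-0.82). The ratio of BZIP60 exceeded that of BZIP28 by 0.89 and that of BZIP17 by 1.34, or 0.97 and 1.46 SDs of such a difference. The IRE1A and IRE1B sensors had no probe set named for them here.

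The partners of BIP3 in the ER lumen that were measured were also higher in csb3. Named probe sets were found for 2 of the 5 listed HSP70, HSP110 and HSP90 genes of the lumen and for 4 of the 6 BiP co-chaperones. HSP70-17, an HSP70-like protein of the ER that the annotation lists by its locus AT4G16660, had a signal of 507.2 in csb3 and 105.1 in Col-0, a 4.83-fold difference. ERDJ3A, a second lumenal J protein, had 399.9 in csb3 and 83.4 in Col-0 (4.79-fold) and is named through the supplementary table of changed genes. The J proteins of the ER membrane that work with the protein import channel, ERDJ2A and ERDJ2B, had log2 ratios of 0.82 and 0.87 and did not reach 2-fold. ERDJ2A had a signal of 336.4 in csb3 and 189.9 in Col-0, and ERDJ2B had 192.0 in csb3 and 105.2 in Col-0. ERDJ3B exceeded them by 0.70 and 0.66, less than the SD of a difference between 2 ratios.

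In the cycle that retains unfolded glycoproteins, CNX2, a membrane-bound calnexin, had a signal of 397.3 in csb3 and 109.9 in Col-0. It was 3.62-fold higher in csb3, whereas the lumenal CRT2 fell short of 2-fold. The ratios of CNX2 and CRT2 differed by 0.98, or 1.06 SDs of such a difference. No probe set was named for CRT1, CRT3, CNX1 or the folding sensor UGGT.

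Besides PDIL1-2, a second disulfide isomerase was up. PDIL2-2 had a signal of 260.7 in csb3 and 58 in Col-0, a 4.49-fold difference, and like PDIL1-2 is named through the supplementary table. With a floor of 100 its log2 ratio was 1.38, against 2.17 with the floor of 50. PDIL5-1, a small single-domain member named by the annotation, had 400.7 in csb3 and 336.2 in Col-0 (log2 ratio 0.25). PDIL1-2 exceeded PDIL5-1 by 2.56 on the log2 scale, or 2.79 SDs of such a difference. These are 3 of 15 listed genes of disulfide bond formation, and both that were up come from a table of changed genes.

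ER-associated degradation removes proteins that fail to fold, and 2 of its 5 measured genes were up. All 5 are named by the annotation, and of all probe sets named by it 3.58% were up. OS9, a lectin that recognises glycoproteins for removal, had a signal of 391.3 in csb3 and 121.3 in Col-0, a 3.23-fold difference. DER1, a derlin of the ER membrane, had 803.6 in csb3 and 302.1 in Col-0 (2.66-fold) on its brighter probe set, and 6.9 in csb3 and 1.5 in Col-0 on a second one that was below the floor on both arrays. Its relatives DER2.1 and DER2.2 had log2 ratios of 0.44 and 0.26, and the ubiquitin-conjugating enzyme UBC32 had 0.49. DER1 exceeded DER2.1 by 0.97 and DER2.2 by 1.15, or 1.06 and 1.26 SDs of such a difference.

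Of the protein import channel SEC61, subunits of each kind were measured. SEC61B2, a beta subunit listed by its locus AT3G60540, had a signal of 586.6 in csb3 and 145.1 in Col-0 and was 4.04-fold higher in csb3. The alpha subunit SEC61A1 had 650.5 in csb3 and 244.4 in Col-0 (2.66-fold). SEC61A2, another alpha subunit, had 2105 in csb3 and 1354 in Col-0, which is a log2 ratio of 0.64, and SEC61A3 had 41.6 in csb3 and 65.8 in Col-0. The gamma subunit SEC61G1 (AT3G48570) has 2 probe sets that fell on both sides of 2-fold. The brighter had 863.8 in csb3 and 563.2 in Col-0 (log2 ratio 0.62), and the dimmer had 335.8 in csb3 and 133.2 in Col-0 (1.33). No listed gene of the oligosaccharyltransferase, which attaches N-glycans, had a named probe set.

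A search of gene symbols and synonyms was made after the values above had been seen. From it 7 genes of the ER and of early secretion were picked by role. Of these 2 were up, against 4.56% of all probe sets. Of the 6 named by the annotation 1 was up, against 3.58% of all probe sets named by it. UTR1, a nucleotide sugar transporter of the ER that is known to respond to unfolded protein, had a signal of 331.8 in csb3 and 90.3 in Col-0 (3.67-fold). It is named through the supplementary table. SEC31A, a subunit of the coat that carries cargo from the ER to the Golgi, had 234.6 in csb3 and 44.1 in Col-0 and was at least 4.69-fold higher in csb3 (log2 ratio 2.23, or 1.23 with a floor of 100). Its relative SEC31B had 187.4 in csb3 and 260.5 in Col-0, with a log2 ratio of -0.48. SPP, a signal peptide peptidase of the ER, fell just short of 2-fold at 1.93-fold (1338 in csb3 and 691.5 in Col-0). The SNARE proteins SEC22 and SEC20 and the Golgi mannosidase GMII had log2 ratios of 0.65, 0.33 and 0.14.

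Chaperones of other compartments did not all follow one direction. Of 19 listed cytosolic, chloroplast and mitochondrial chaperones and heat stress factors, 3 had a named probe set. Of these 2 were up, against 4.56% of all probe sets, but 1 of the 2 comes from the table of changed genes. Of the 2 named by the annotation 1 was up, against 3.58% of all probe sets named by it. HSP17.6A, a small heat shock protein of the cytosol that is named through the supplementary table, had a signal of 416.1 in csb3 and 53.1 in Col-0 (7.84-fold, a log2 ratio of 2.97, or 2.06 with a floor of 100). HSC70-2, a cytosolic HSP70 named by the annotation, had 1109 in csb3 and 260.8 in Col-0 (4.25-fold). HSP70-3, another cytosolic HSP70, had 5713 in csb3 and 5714 in Col-0, which are nearly equal signals. The ratios of HSC70-2 and HSP70-3 differed by 2.09, or 2.28 SDs of such a difference. HSP70 genes are alike in sequence, and how far their probe sets read each other was not tested.

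From the same search 8 folding factors outside the ER were picked in the same way, with 1 up and 1 down. All 8 are named by the annotation, and of all probe sets named by it 3.58% were up and 2.65% down. ROF2, a peptidyl-prolyl isomerase that acts in heat tolerance, had 538.6 in csb3 and 231.4 in Col-0 (2.33-fold). CPN60BETA4, a subunit of the chloroplast chaperonin, had 120.6 in csb3 and 271.1 in Col-0, so that it was 2.25-fold lower in csb3. The chaperonin subunits CPN60BETA2 and CPN60BETA3 had log2 ratios of 0.74 and 0.54, and the cyclophilins CYP71 and CYP57 had 0.17 and 0.62. The cyclophilin SQN had 32.2 in csb3 and 61.1 in Col-0, and CYP59 was below the floor in both genotypes. Higher signals in csb3 were not limited to genes of the ER among the folding genes measured.

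Differences in scaling between the arrays bear on the genes near 2-fold. All 18 probe sets of the Bio and Cre spike-in controls, from Escherichia coli and a phage, had lower signals in csb3. Their log2 ratios lay between -1.34 and -0.75, with a median of -0.98. Bacterial controls of other kinds were not examined. Scaled on them, CRT2 passed 2-fold with a log2 ratio of 1.86 and 19 of the 21 other ER genes were up, but so were 7671 of all probe sets. Scaled on the reference genes TIP41 and SAND, CRT2 had 0.65 and BZIP60 had 1.58. BZIP60, BIP3, ERDJ3B and PDIL1-2 stayed above 2-fold under every floor and scaling tried.

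**Figure D4:**
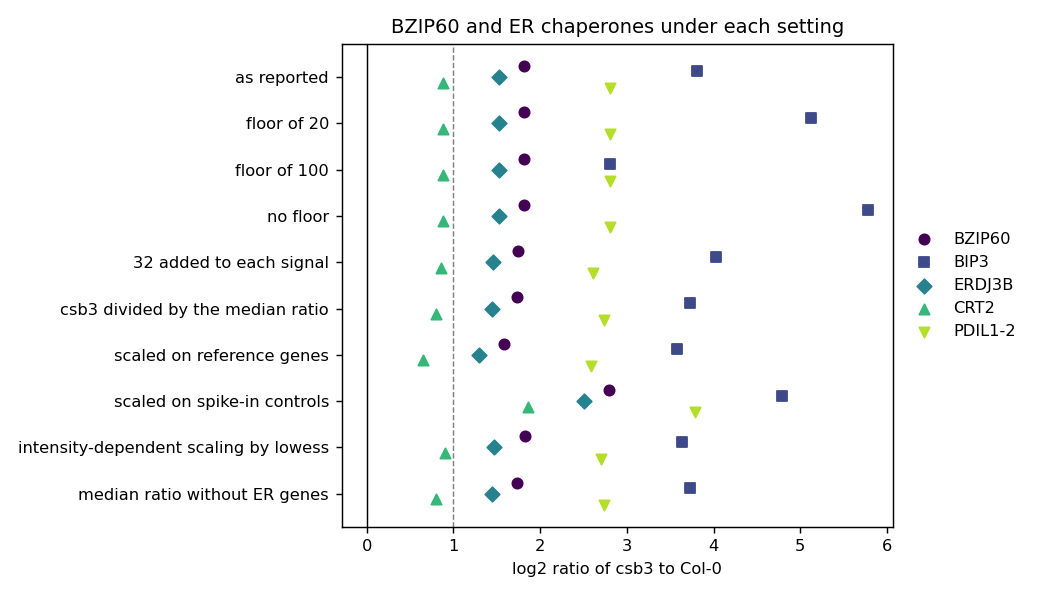
Log2 ratio of csb3 to Col-0 (horizontal axis) for the 5 genes under the reported setting and 9 alternatives, with a dashed line at 2-fold. CRT2 crosses that line under 1 of the alternatives, scaling on the spike-in controls, at 1.86, and BIP3 moves with the floor, between 2.80 and 5.78.

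Some controls of RNA quality and the root marker PYK10 differed between the arrays as well. Control probe sets at the 3′ end read brighter than those at the 5′ end, and this ratio was 4.91 in csb3 and 2.06 in Col-0 for actin, 1.40 in csb3 and 1.29 in Col-0 for GAPDH, and 1.98 in csb3 and 2.66 in Col-0 for ubiquitin. Of the root markers, PYK10, a beta-glucosidase stored in ER bodies, had 1220 in csb3 and 27.8 in Col-0, while the expansins of root hairs, EXPA7 and EXPA18, stayed under 50 in both genotypes. The leaf marker RCA, Rubisco activase, had 7432 in csb3 and 12691 in Col-0. Its log2 ratio of -0.77, or -1.19 SDs of a single ratio, was close to that spread. No flower or seed marker listed had a named probe set. The part of these differences in the ratios of the ER genes was not tested.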

How the data were processed

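Affymetrix ATH1 arrays had been hybridised with RNA from whole plants, 1 array for csb3 and 1 for Col-0. The deposited values are intensity signals on a linear scale, which the authors made with MAS5, without a logarithm or centring. With 2% of probe sets trimmed at each end, both arrays have a mean of 250, so each had been scaled to that target. SAM on triplicates, which the methods name, cannot be run on 1 array per genotype. The number of arrays limits the precision.

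Signals were given a floor of 50, and log2 ratios (csb3 over Col-0) were taken in Python 3.11.15 with pandas 2.3.3 and NumPy 2.4.6; lowess used statsmodels 0.14.6 and figures matplotlib 3.10.9. No test was made. The calls, the scaling and the SD estimate were checked on simulated data. The annotation names 13510 probe sets with 1 usable gene. Another 219 were named by the gene codes of the supplementary table, from which nothing else was used. Symbols come from RefSeq genes of TAIR10.1. A gene with several probe sets is given by the brightest. The text names the 5 genes and list genes with a probe set. The gene nearest to each of the 5 in signal was also part of the naming rule but is not reported, because levels of different probe sets are not comparable. The genes and lists were chosen with earlier results of these data known. Alternatives were floors of 20 and 100, no floor, 32 added to each signal, 4 other scalings and a 4-fold rule.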

Additional observations from a re-analysis of the deposited data

How the results depend on the processing

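No paired analysis was possible because there is 1 array per genotype. Of the 5 genes, the count up was 4 at 2-fold and 2 at 4-fold, and none was down under any alternative. Scaling on the spike-in controls gave log2 ratios of 2.79 for BZIP60, 4.78 for BIP3, 2.50 for ERDJ3B, 1.86 for CRT2 and 3.79 for PDIL1-2. BIP3 had 5.12 with a floor of 20, 2.80 with a floor of 100 and 5.78 with no floor. Of the 21 other ER genes, 8 were up, 19 with spike-in scaling and 4 at 4-fold, and 1 was down (S2P) with reference gene scaling. With the cytosolic chaperones and the 5 genes included, 14 genes were up, 26 with spike-in scaling and 8 at 4-fold. Over all probe sets, 1041 were up and 624 down. No floor gave 2696 up and 3552 down, reference gene scaling 660 and 1174, spike-in scaling 7671 and 80, and the 4-fold rule 202 and 60, while a floor of 20 gave 1291 down. Among 38 other list genes for which the alternatives were run, 14 were past 2-fold and none of the 14 changed sign; organ markers were not among them. CPN60BETA4 fell short of 2-fold with 32 added and with spike-in scaling, and ROF2 with reference gene scaling. Leaving the ER genes out of the median used for scaling was chosen after the data were seen, as were the counts over annotation names alone and over probe sets that reached 50 in both genotypes. With a floor of 100 the log2 ratios of PDIL2-2, SEC31A and HSP17.6A were 1.38, 1.23 and 2.06. Signal over background limits dim genes, and 8403 probe sets were below 50 on both arrays. The causes of these shifts were not tested.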
